A study of Mus musculus with 6 samples.

Results

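The 35 genes described here are used as markers of immune cells (leukocytes). Of these genes, 3 are shared by nearly all leukocytes, 11 belong to T cells, 3 to B cells and 10 to macrophages and other myeloid cells. A further 1 belongs to Langerhans cells, 4 to cytotoxic lymphocytes and 3 to mast cells. The genes were taken by name from the expression table of mouse taste cells, and all 35 were found among its 23361 genes. The RNA came from isolated taste cells of C57BL/6 mice aged 2 and 6 months, and the labels name no other allele or agent in either group. The cells were taken from CV papillae (circumvallate, on the rear of the tongue) and foliate papillae (folds along its edges). Each age had 3 libraries, and each library was a pool of 4 mice at 2 months or of 3 mice at 6 months. The cells were drawn by suction from enzyme-loosened epithelium and no sorting is described. The table gives 1 FPKM value per gene and age, estimated over all libraries of that age. FPKM is a read count scaled to transcript length and to the reads of the library. Paired values are given below in the order 2 months, then 6 months. Values of the single libraries were not analysed here, so no SD can be given, no difference between the ages could be tested, and sequencing depth is unknown. Differences below are therefore differences between 1 value per age, of unknown size relative to the spread between pools.

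Leukocytes are told apart by the receptors and enzymes that each lineage makes. T and B cells read antigen through clonal receptors that have no signalling tail of their own and depend on partner chains (the CD3 proteins and CD247 in T cells, CD79a and CD79b in B cells). Myeloid and natural killer cells use the adaptors DAP12 (Tyrobp) and the Fc receptor gamma chain (Fcer1g) in the same way, and all of these chains carry the same short tyrosine motif, the ITAM. Stratified epithelium such as that of the tongue is known to hold resident Langerhans cells and T cells, and macrophages and mast cells lie mainly in the connective tissue beneath it. Some of these markers are also made by cells other than leukocytes. Kit, for example, is also a gene of melanocytes and germ cells.

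The markers included a small group of strong genes and a large group near or under 1 FPKM. A mean of at least 1 FPKM over the ages was reached by 16 of the 35, and 3 had a mean under 0.1 FPKM. None was listed at 0 in either age. Gzma, Cd14, Kit and Cd5 together held 64.3% of the summed FPKM of all 35 genes at 2 months and 60.5% at 6 months. The order of the 12 highest genes was the same at both ages, from Gzma, Cd14, Kit, Tyrobp and Cd5 down to Fcgr3, Csf1r and Cd207. Neighbours in that order cannot be separated beyond their spread, which is not known.

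**Figure D1:**
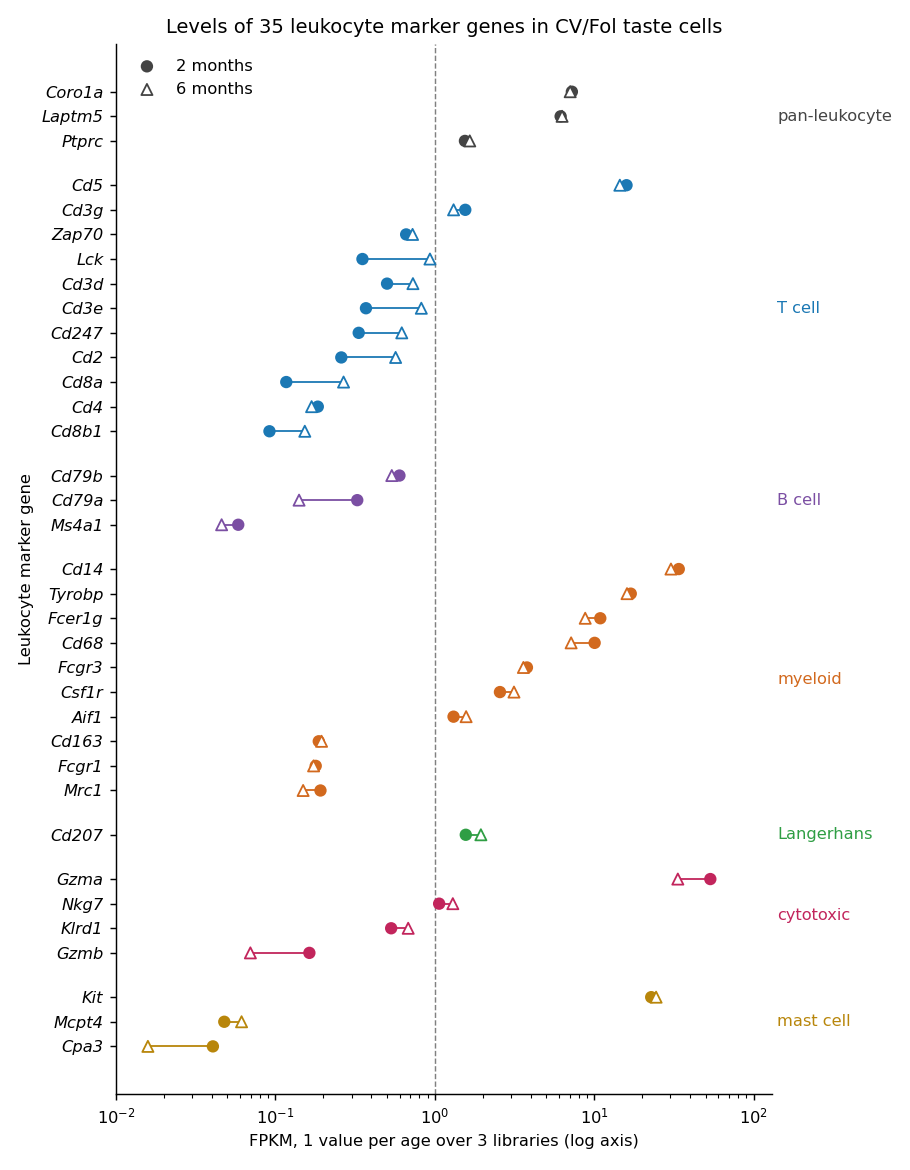
FPKM of the 35 leukocyte marker genes on a log axis, grouped by lineage, with filled circles for 2 months, open triangles for 6 months and a dashed line at 1 FPKM; each point is the single value of that age. Gzma lies at 53.4 and 33.4 FPKM and Kit at 22.7 and 24.4 FPKM, while the other genes of their lineages lie near or under 1 FPKM.

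The upstream sequences of the genes that stand apart are shown because their levels differ so widely from those of their lineage partners. They are the 250 bases before the transcription start in RefSeq, build GRCm38.p6, read 5′ to 3′ on the strand of the gene. For Gzma they are chr13:113100982-113101231 on the minus strand, for Gzmb chr14:56262335-56262584 on the minus strand, for Cd5 chr19:10738975-10739224 on the minus strand and for Kit chr5:75574737-75574986 on the plus strand. Capitals mark matches, on either strand, to any of 4 short cores that were searched. For the TATA box the letters were TATAAA. ETS factors were represented by GGAAGT. The core used for RUNX factors was TGTGGT. That for GATA factors was AGATAA. No match overlapped another in these windows.
Gzma: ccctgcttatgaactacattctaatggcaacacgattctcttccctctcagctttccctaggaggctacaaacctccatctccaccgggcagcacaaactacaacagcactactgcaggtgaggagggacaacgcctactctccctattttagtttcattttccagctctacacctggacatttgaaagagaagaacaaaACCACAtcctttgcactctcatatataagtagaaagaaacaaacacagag
Gzmb: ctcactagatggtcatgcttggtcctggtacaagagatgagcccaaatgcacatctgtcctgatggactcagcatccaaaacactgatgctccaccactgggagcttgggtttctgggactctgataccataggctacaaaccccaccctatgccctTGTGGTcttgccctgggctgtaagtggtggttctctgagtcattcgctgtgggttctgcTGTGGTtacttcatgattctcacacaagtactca
Cd5: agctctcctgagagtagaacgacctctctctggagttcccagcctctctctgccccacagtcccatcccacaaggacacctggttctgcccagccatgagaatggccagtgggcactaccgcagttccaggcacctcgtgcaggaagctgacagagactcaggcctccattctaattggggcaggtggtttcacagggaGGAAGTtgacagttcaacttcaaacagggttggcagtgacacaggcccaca
Kit: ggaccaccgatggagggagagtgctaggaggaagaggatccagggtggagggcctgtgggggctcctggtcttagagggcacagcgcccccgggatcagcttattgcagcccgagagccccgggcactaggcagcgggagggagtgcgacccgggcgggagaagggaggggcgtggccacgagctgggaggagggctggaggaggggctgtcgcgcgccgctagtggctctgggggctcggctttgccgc

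Gzma and Gzmb both held the RUNX core, at 1 place in Gzma and at 2 in Gzmb, though Gzma had 327 and 480 times the FPKM of Gzmb. Gzmb had only 0.163 and 0.0696 FPKM, so these ratios rest on low values whose counting error is unknown. Cd5 held an ETS core, and the Kit window held none of the 4. Among the 26 markers with an entry in the promoter table, the ETS core was in 10 (38.5%), beside 20.0% of all 27025 promoters. The RUNX core was in 6 (23.1%), beside 14.2% of all promoters, and these were Lck, Nkg7, Gzma, Gzmb, Cpa3 and Mcpt4. The TATA box was in 4 (15.4%, beside 13.0%) and the GATA core in 3 (11.5%, beside 10.3%). CpG dinucleotides were few, with a median of 3 in the 26 windows and 6 in all promoters. Kit had 17, the most of the 26, and Coro1a had 13. A match to such a short core is a description of the letters and not a binding site.

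Most markers lay close together at the 2 ages. On the log2(FPKM + 1) scale, used throughout for differences of 6 minus 2 months, the 16 stronger markers had a median of -0.04, beside -0.01 for all 12652 genes that passed the same filter. A difference of at least 1.5-fold on that scale was counted. It was met by 1 of the 16 in the downward direction, Gzma, where 1.72% of all 12652 genes met it, and by 0 of the 16 in the upward direction, where 1.05% did. Of the 16, 7 were higher and 9 lower at 6 months, beside 5854 higher and 6798 lower of all 12652. At 2-fold, 0 of the 16 were higher (0.561% of all genes) and 0 were lower (1.04%). At a log2 difference of at least 0.32, 0 were higher (2.95% of all) and 2 were lower, Cd68 and Gzma (4.23% of all). With a pseudocount of 0.1 in place of 1, Gzma was again the 1 marker past 1.5-fold lower (2.17% of all genes) and 0 were higher (1.46%). Among the 9 markers averaging 5 FPKM or more, Gzma alone was lower (1.78% of 9311 genes) and 0 were higher (1.03%). Over all 35 markers without a filter, 1 was lower (1.0% of 23361 genes) and 0 higher (0.599%), and with a pseudocount of 0.1 as well, 5 were higher (2.21%) and 3 lower (2.66%). The pseudocount compresses differences of genes under 1 FPKM, so the 19 weaker markers are given below by their FPKM values.

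**Figure D2:**
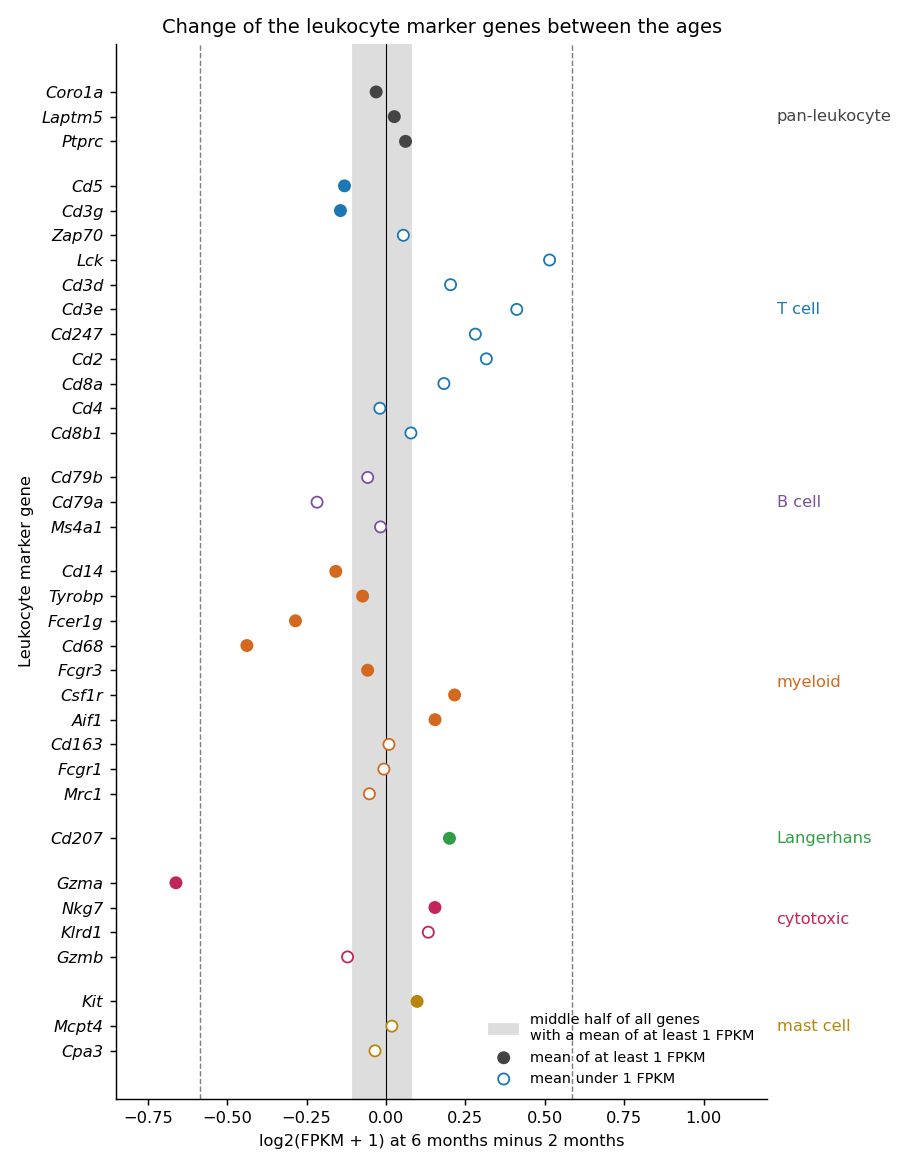
Difference of log2(FPKM + 1), 6 minus 2 months, for the 35 marker genes by lineage; filled points average 1 FPKM or more, open points less, the grey band runs between the quartiles of all genes averaging 1 FPKM or more and the dashed lines mark 1.5-fold. Gzma at -0.66 lies beyond the lower line, and Lck at 0.52 is the highest point.

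The genes shared by nearly all leukocytes were almost level between the ages. Ptprc, which encodes CD45, the surface phosphatase that defines nucleated blood cells, had 1.54 and 1.65 FPKM. Coro1a, an actin-binding protein of leukocytes, had 7.23 and 7.06 FPKM. Laptm5, a lysosomal membrane protein of blood cells, had 6.15 and 6.28 FPKM. The differences of these 3 genes lay between -0.03 and 0.06. In RNA of mixed cells, fewer cells of a type and less RNA per cell cannot be told apart. A further 22 pan-leukocyte genes had a summed level of 98.6 and 103.3 FPKM, and 0 of the 16 averaging 1 FPKM or more differed by 1.5-fold. Of all 12652 genes at that level, 1.05% were higher and 1.72% lower by 1.5-fold. The highest of the 22 were Ptpn6, an inhibitory phosphatase (19.5 and 18.5 FPKM), Cd52 (15.8 and 19.5 FPKM) and Lcp1, an actin bundler (17.1 and 16.5 FPKM). Of the 6 averaging 0.1 to 1 FPKM, Cd48 (0.621 and 1.02 FPKM) was past 1.5-fold higher with a pseudocount of 0.1. So were 6.67% of all genes in that range of level.

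Among the cytotoxic markers, Gzma stood apart in level and in its difference between the ages. Granzyme A, its product, is a serine protease stored in the granules of cytotoxic T and natural killer cells. The level was 53.4 and 33.4 FPKM, which is 1.60 times as high at the younger age and a log2 difference of -0.66. At 2 months Gzma was above 92.8% of all genes in the table, and at 6 months above 88.6%. Among the 3505 genes with a mean of 20 to 100 FPKM, 1.88% were lower and 1.08% higher by at least 1.5-fold.

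The other cytotoxic genes, not all of them granule components, were far weaker. Gzmb, which encodes granzyme B, had 0.163 and 0.0696 FPKM, which with a pseudocount of 0.1 was past 1.5-fold lower, as were 7.11% of all genes averaging 0.1 to 1 FPKM. Nkg7, a granule membrane protein, had 1.06 and 1.30 FPKM. Klrd1, the CD94 chain of natural killer receptors, had 0.532 and 0.680 FPKM. These last 2 genes were higher at the age when Gzma was lower. Of 13 other cytotoxic genes, 2 averaged 1 FPKM or more, the chemokine Xcl1 (1.045 and 1.35 FPKM) and the protease Ctsw (1.10 and 1.27 FPKM), and the next was Gzmc (0.663 and 0.517 FPKM). In that list 11 of the 13 had the higher value at 6 months, but 6 of the 13 averaged under 0.1 FPKM. Klre1 and Gzmk were at 0 at 2 months, and at 0.0511 and 0.0279 FPKM at 6 months. Of all 23361 genes, 8990 were higher at 6 months, 9888 were lower and 4483 were at 0 in both ages. Of the 5 genes of the cytotoxic list averaging 0.1 to 1 FPKM, 1 was past 1.5-fold higher with the pseudocount of 0.1, and 0 were lower. That 1 was the natural killer receptor Ncr1 (0.0402 and 0.202 FPKM). Of all genes in that range of level, 6.67% were higher and 7.11% lower by that measure. Prf1, which encodes perforin, the pore protein that lets granzymes into a target cell, had 0.0539 and 0.0603 FPKM. The transcripts of Gzma share no stretch of 50 bases with another gene of the GENCODE annotation, on either strand.

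Cd5 showed the same kind of separation within the T cell markers. CD5 is a surface receptor that dampens antigen receptor signalling on T cells and on a subset of B cells. Its level was 15.9 and 14.5 FPKM, a log2 difference of -0.13. The other 10 T cell genes summed to 4.42 and 6.29 FPKM. At 2 months Cd5 had 10.3 times the FPKM of Cd3g and 181 times that of Cd6, a related receptor. At 6 months the ratios were 11.0 and 46.1. Cd6 had only 0.0878 and 0.314 FPKM, so the ratios to it rest on low values whose counting error is unknown. The transcripts of Cd5, like those of Gzma, share no 50-base stretch with another gene.

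The 3 genes of the CD3 complex on chromosome 9 did not run in parallel. In GRCm38 they lie side by side, Cd3g from 44969572 to 44980431, Cd3d from 44981786 to 44987339 and Cd3e from 44998740 to 45009627, and Cd3g and Cd3d are read away from each other from starts 1355 bases apart. Cd3g had 1.55 and 1.31 FPKM. Cd3d had 0.501 and 0.728 FPKM, and Cd3e had 0.370 and 0.822 FPKM. Cd3g was thus the strongest of the 3 at either age and the only one with the lower value at 6 months. Its ratio to Cd3e was 4.20 at 2 months and 1.59 at 6 months. An antisense gene, Gm48719, holds 2.16% of the 50-base stretches of Cd3e. The 4th chain of the complex, Cd247 (CD3 zeta), had 0.333 and 0.620 FPKM.

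The weak T cell genes leaned towards higher values at 6 months. Lck, the kinase that starts signalling by phosphorylating the CD3 chains, had 0.351 and 0.931 FPKM, 2.65 times as high. Zap70, the kinase that then docks on them, had 0.660 and 0.724 FPKM. Cd2, an adhesion receptor, had 0.259 and 0.567 FPKM. Cd8a and Cd8b1, the chains of the coreceptor of cytotoxic T cells, had 0.117 and 0.267 FPKM and 0.0917 and 0.153 FPKM. Cd4, the coreceptor of helper T cells, had 0.184 and 0.168 FPKM. All but Cd4 in this group had their higher value at 6 months.

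In all, 8 of the 11 T cell markers were higher at 6 months, and all 8 averaged under 1 FPKM. The 2 averaging 1 FPKM or more, Cd5 and Cd3g, were lower. Of all 23361 genes, 8990 were higher, 9888 were lower and 4483 were at 0 in both ages. The 9 T cell markers with a mean of 0.1 to 1 FPKM were read with a pseudocount of 0.1, a choice made after their values were seen. Of these 9, 5 (Lck, Cd3e, Cd2, Cd8a and Cd247) were then at least 1.5-fold higher and 0 were lower. Of the 3194 genes in this range of level, 6.67% were higher and 7.11% were lower by that measure. Among 17 other T cell genes found in the table, 12 were higher at 6 months, and 3 of the 12 in the same range of level were at least 1.5-fold higher: Ctla4 (0.132 and 0.407 FPKM), Cd6 (0.0878 and 0.314 FPKM) and Foxp3 (0.142 and 0.288 FPKM). The T cell genes can be expressed by the same cells and are not independent of each other. The strongest other T cell genes were Tcf7 (5.88 and 5.63 FPKM), Thy1 (1.62 and 2.28 FPKM) and Lat (1.15 and 1.10 FPKM). Cd247 overlaps the gene Pou2f1 on the opposite strand, and 55.9% of the 50-base stretches of its transcripts also occur in other genes, chiefly Pou2f1, which had 2.65 and 3.29 FPKM. Strandedness of the counting is not given in the sources used here, so reads of Cd247 and Pou2f1 may not be separated.

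B cell markers were all under 1 FPKM and all had the lower value at 6 months. Cd79a, a signalling chain of the B cell receptor, had 0.326 and 0.141 FPKM. Its partner Cd79b had 0.599 and 0.537 FPKM. Ms4a1, which encodes CD20, had 0.0584 and 0.0459 FPKM. With the pseudocount of 0.1, Cd79a was past 1.5-fold, 1 of the 2 B cell markers in the range of 0.1 to 1 FPKM, where 7.11% of all genes were lower by that measure and 6.67% higher. The other B cell genes did not share one direction, with 5 higher and 10 lower of 15, beside 8990 and 9888 of all 23361 genes. Of the 7 in that range, 1 was past 1.5-fold, Mzb1, a gene of antibody-secreting cells, and it was higher (0.0815 and 0.290 FPKM). Spib, a transcription factor of B cells and some other lineages (5.02 and 5.76 FPKM), and the receptor Cd72 (4.83 and 4.11 FPKM) led that list, followed by Cd37 (1.54 and 1.42 FPKM). Pax5, the factor that fixes B cell identity, was at 0.0180 and 0.0141 FPKM.

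**Figure D3:**
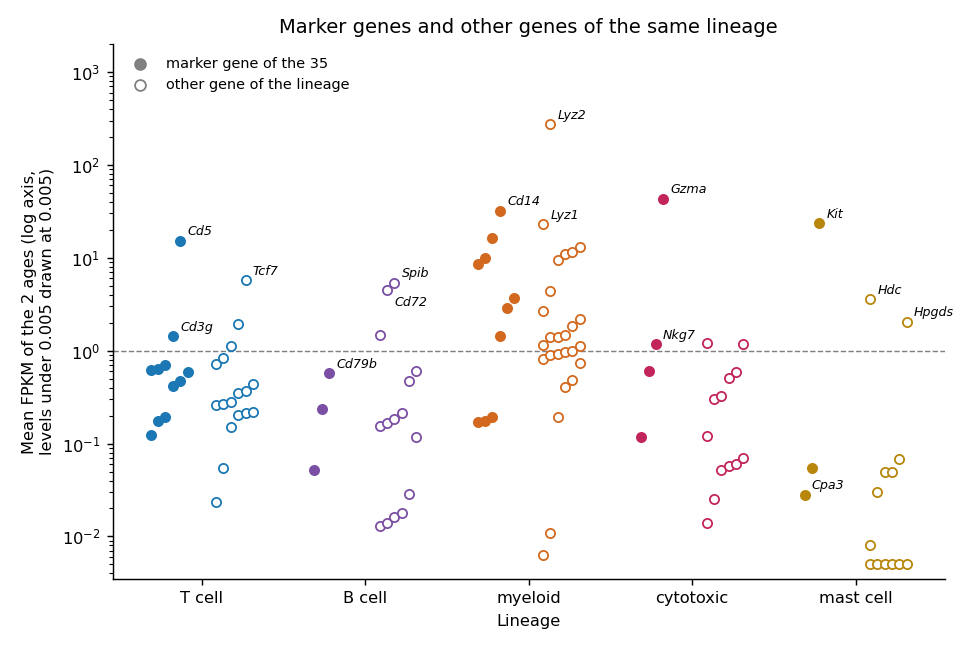
Mean FPKM of the ages on a log axis for the marker genes (filled) and other genes (open) of 5 lineages; points are spread sideways within a lineage, levels under 0.005 FPKM are drawn at 0.005 and the dashed line marks 1 FPKM. Cd5, Gzma and Kit each lie above every other gene of their lineage, and the myeloid genes cover the range from under 0.1 to 273 FPKM.

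The myeloid markers were the most strongly represented lineage by number, with 7 of 10 at a mean of at least 1 FPKM. Cd14, the coreceptor for bacterial lipopolysaccharide, had 33.9 and 30.3 FPKM. That was 3.37 and 4.23 times the level of Cd68, and 13.2 and 9.65 times that of Csf1r. The ITAM adaptors followed: Tyrobp had 16.9 and 16.0 FPKM, and Fcer1g had 10.9 and 8.77 FPKM. Cd68, a lysosomal glycoprotein abundant in macrophages, had 10.0 and 7.15 FPKM, a log2 difference of -0.44, the next largest downward difference after Gzma. Fcgr3, a low-affinity receptor for IgG that signals through Fcer1g, had 3.78 and 3.59 FPKM. Of its 50-base stretches, 9.58% also occur in the inhibitory receptor Fcgr2b (1.27 and 1.54 FPKM), so reads can be split between them.

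Receptors and structural genes of resident macrophages were lower in level. Csf1r, the receptor for the macrophage growth factor CSF1, had 2.56 and 3.13 FPKM. It overlaps Hmgxb3 on the opposite strand (9.24 and 10.1 FPKM), with 14.3% of its 50-base stretches shared. Aif1, which encodes the actin-binding protein IBA1, had 1.31 and 1.57 FPKM. These 2 genes were higher at 6 months, against 5 myeloid markers averaging 1 FPKM or more that were lower. The remaining 3 stayed under 0.2 FPKM: Mrc1, the mannose receptor (0.192 and 0.149 FPKM), Cd163, the haemoglobin scavenger receptor (0.187 and 0.195 FPKM), and Fcgr1, the high-affinity IgG receptor (0.179 and 0.173 FPKM). Mrc1 and Cd163 are best known from macrophages of connective tissue.

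Of 26 other myeloid genes, 15 averaged 1 FPKM or more, and 0 of the 15 differed by 1.5-fold, 8 being higher and 7 lower at 6 months. Of all 12652 genes at that level, 1.05% were higher and 1.72% lower by 1.5-fold. The highest of the 26 were Lyz2 and Lyz1, which encode lysozyme (293 and 254 FPKM, and 24.99 and 21.15 FPKM) and which epithelia and glands also make, and the protease Ctss (14.2 and 11.9 FPKM). The complement genes C1qa, C1qb and C1qc, products mainly of macrophages, were at 9.08 to 11.8 FPKM in either age. Cd207, which encodes langerin, the lectin of Langerhans cell granules, had 1.56 and 1.94 FPKM, a log2 difference of 0.20. Dendritic cell genes other than Cd207 were mostly weak. Of 11, the first was Fscn1 (51.5 and 43.1 FPKM), an actin bundler that is not limited to dendritic cells, then Itgax (1.76 and 2.08 FPKM) and Ly75 (1.18 and 1.47 FPKM), and the other 8 had means under 1 FPKM. Batf3, a transcription factor of dendritic cells (0.550 and 0.919 FPKM), was past 1.5-fold higher with the pseudocount of 0.1. It was 1 of the 6 averaging 0.1 to 1 FPKM, a range in which 6.67% of all genes were higher by that measure.

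Kit stood far above the other mast cell markers. The receptor for stem cell factor, its product, is needed by mast cells and by several other cell types. Kit had 22.7 and 24.4 FPKM, a log2 difference of 0.10. The mast cell proteases Cpa3 and Mcpt4 had 0.0405 and 0.0158 FPKM, and 0.0477 and 0.0613 FPKM. Of 13 other mast cell genes, 5 were listed at 0 in both ages, among them Fcer1a, the IgE-binding chain, and the proteases Cma1 and Tpsab1. Only Hdc, the enzyme that makes histamine (3.39 and 3.75 FPKM), and Hpgds (1.85 and 2.26 FPKM) averaged 1 FPKM or more, and the next, Mcpt1, had 0.0536 and 0.0825 FPKM. Markers of melanocytes, which also carry KIT, were weak as well: Pmel had 1.249 and 0.983 FPKM, Tyr had 1.06 and 1.03 FPKM, Dct had 0.102 and 0.0633 FPKM, and Mlana and Tyrp1 were listed at 0. The cell of origin of Kit was not tested, with taste cells and other epithelial cells of the samples included in that.

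The ITAM-bearing chains give a view across lineages. The 8 of them among the markers are Cd3d, Cd3e, Cd3g, Cd247, Cd79a, Cd79b, Fcer1g and Tyrobp, and their summed level was 31.5 and 29.0 FPKM. Tyrobp and Fcer1g, the adaptors of myeloid and natural killer cells, held most of it. Tyrobp was 1.55 times Fcer1g at 2 months and 1.83 times at 6 months. Trem2, a receptor that needs Tyrobp, had 0.425 and 0.536 FPKM. Of 17 kinases, adaptors and phosphatases that act after the ITAM, 13 averaged 1 FPKM or more and 0 of these differed by 1.5-fold. Of all 12652 genes at that level, 1.05% were higher and 1.72% lower by 1.5-fold. Blnk led the 17 (56.3 and 48.5 FPKM), then Plcg1 (18.7 and 21.1 FPKM) and Ptpn6, already given above. Syk, the ITAM kinase of myeloid and B cells, had 3.60 and 3.76 FPKM, while its T cell counterpart Zap70 stayed under 1 FPKM.

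**Figure D4:**
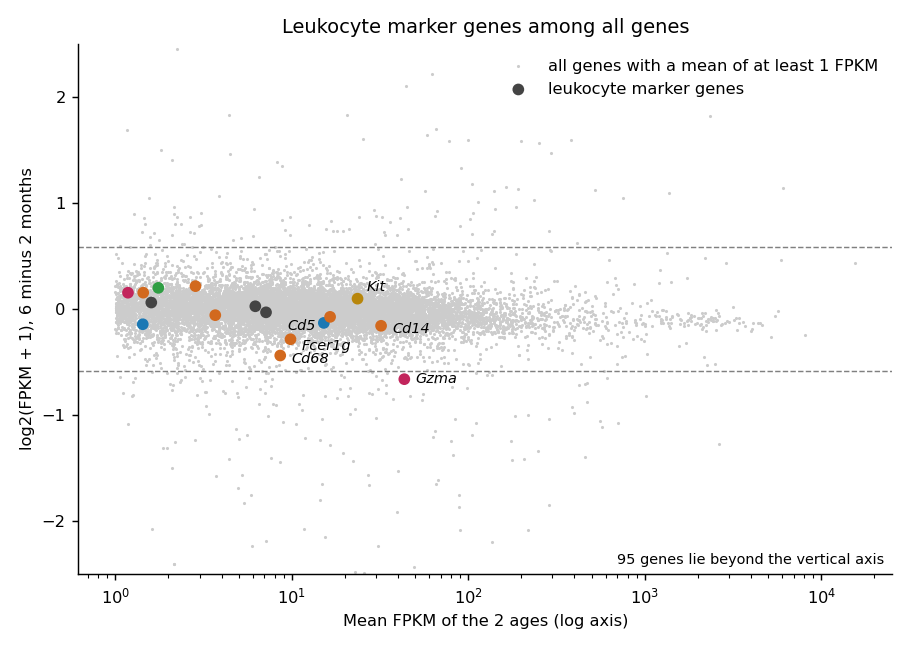
Difference of log2(FPKM + 1), 6 minus 2 months, against the mean FPKM on a log axis for all 12652 genes averaging 1 FPKM or more (grey) and the 16 marker genes among them (colours by lineage as in the plot of levels); dashed lines mark 1.5-fold, and 95 genes lie beyond the vertical axis. Gzma is the only coloured point beyond a dashed line.

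The sum over all 35 markers was 195.8 and 169.4 FPKM, a ratio of 0.865, beside 0.958 for the sum over all 23361 genes. Gzma alone accounted for most of this difference, since the other 34 genes summed to 142.4 and 136.0 FPKM. By lineage, the ratio of the sums was 1.004 for the pan-leukocyte genes, 1.02 for T cell genes, 0.735 for B cell genes and 0.888 for myeloid genes. It was 1.24 for the Langerhans cell gene, 1.07 for mast cell genes and 0.642 for cytotoxic genes. Kit held nearly all of the mast cell sum, and without it the sums were 0.0882 and 0.0771 FPKM. Without Cd5 the T cell ratio was 1.42, and without Gzma the cytotoxic ratio was 1.16. The genes left out were picked by their level, after the values were seen. The remaining T cell genes averaged under 1 FPKM except Cd3g, which was lower at 6 months. Markers of other cell types were read beside those of leukocytes. The 9 taste cell genes were all present, with 502 and 459 FPKM, led by Krt8 (234.3 and 196.7 FPKM), Gnat3 (84.7 and 79.9 FPKM) and Entpd2 (66.1 and 57.7 FPKM), and 7 basal keratinocyte genes, led by Krt5 (2180 and 1962 FPKM), Krt14 (1287 and 1533 FPKM) and Krt15 (911.5 and 848.6 FPKM), had 4705 and 4689 FPKM. Skeletal muscle genes had 13.0 and 26.01 FPKM with all 8 higher at 6 months. All 4 red blood cell genes were higher at 6 months too, with 64.4 and 87.5 FPKM in sum. Of all 23361 genes, 8990 were higher at 6 months, 9888 were lower and 4483 were at 0 in both ages. Endothelial genes had 10.1 and 9.46 FPKM over 14 genes, with the defining Cdh5 at 0.0323 and 0.0951 FPKM. The part of muscle and blood in the higher values of the weak T cell genes was not tested.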

How the data were processed

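Poly A RNA from CV/Fol taste cells was sequenced as 3 pooled libraries per age. Per the submitters' processing notes and the methods, the authors mapped reads with TopHat 2.0.7 to GRCm38/mm10 with a RefSeq annotation, estimated FPKM with Cufflinks 2.1.1 and compared the ages with Cuffdiff. The deposited table holds 1 FPKM value per gene and age. It also holds an unadjusted p-value of the authors' comparison, which was not used. Columns were assigned to ages by the letter they share with the sample titles. The labels give 2 and 6 months, although the series text names 3 months in 1 place. The library normalization of Cuffdiff is not given in the sources used here. Values of single libraries were not analysed here, so no test was made.

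Differences are log2(FPKM + 1) at 6 months minus 2 months. Genes averaging 1 FPKM or more were counted, and a difference of at least 1.5-fold was called. The code that counts fold differences was checked on values with known folds, which says nothing of the spread between pools. Members and gene lists were chosen with earlier results of these data known. All 35 markers are named, and of each of 19 other lists the 3 genes with the highest mean and those past 1.5-fold, except 1 gene that is not reported here. Other genes named, those of 0.1 to 1 FPKM past 1.5-fold with a pseudocount of 0.1 among them, were chosen after their values were seen. Of 237 list entries, 13 were not matched and are not analysed here. Coordinates and 50-base stretches are from GENCODE M21 (GRCm38). Alternatives were a pseudocount of 0.1, no filter or 5 FPKM, equal upper quartiles, and 2-fold or a log2 difference of 0.32. Python 3.11.15, numpy 2.4.6, pandas 2.3.3 and matplotlib 3.10.9 were used.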

Additional observations from a re-analysis of the deposited data

How the results depend on the processing

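Gzma was the 1 marker called lower under the pseudocount of 0.1, with the filter dropped or raised to 5 FPKM, and with equal upper quartiles. At 2-fold 0 markers were lower, and at a log2 difference of 0.32 there were 2, Cd68 and Gzma. Without a filter and with the pseudocount of 0.1, chosen after seeing the data, 5 markers were higher (Cd3e, Cd247, Cd8a, Cd2 and Lck) and 3 lower (Cd79a, Gzma and Gzmb), where 2.21% and 2.66% of all 23361 genes were. The ratio of the sums, 0.865, was 0.955 without Gzma and 0.957 without Gzma, Cd14, Kit and Cd5, the latter chosen after seeing the data. Over all 23361 genes the ratio of the sums was 0.958. The median stayed within 0.1 of -0.04, from -0.13 to 0.01. Equal upper quartiles, a factor of 1.015 on the 6 month values, turned the direction of 0 of the 35 markers. No paired analysis was possible because each age is represented by 1 value, and for that reason no replicate was left out. Depth is unknown, so the counting error of the genes under 1 FPKM cannot be given.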

Other observations

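Genes of granulocytes and platelets, which are not among the 35 markers, were also read in the table. Ltf, which encodes lactoferrin, a protein of neutrophil granules and of gland secretions, had 2144 and 2016 FPKM (2 months, then 6 months, as in all pairs here). The neutrophil receptors Cxcr2 (4.77 and 4.47 FPKM) and Csf3r (3.40 and 3.60 FPKM) followed, while Mpo was at 0.00558 and 0.0276 FPKM and Elane and Prg2 were listed at 0 in both ages. With a pseudocount of 0.1, 2 of the 4 granulocyte genes averaging 0.1 to 1 FPKM were past 1.5-fold lower, Retnlg (1.18 and 0.639 FPKM) and Ngp (0.189 and 0.0858 FPKM), as was the platelet gene Gp9 (0.444 and 0.0935 FPKM), beside 7.11% of all genes in that range. Among platelet genes, Ppbp, a chemokine of platelet granules, had 173 and 151 FPKM, Gp1bb 5.65 and 8.52 FPKM and Itga2b 4.59 and 5.22 FPKM. Pf4, the other platelet granule chemokine of the list, had 2.88 and 1.29 FPKM, a log2 difference of -0.76. Of the red blood cell genes, Hba-a2 had 59.4 and 80.4 FPKM and Alas2, the first enzyme of heme synthesis in red cell precursors, 4.99 and 7.05 FPKM, and the anion exchanger Slc4a1 0.0339 and 0.0564 FPKM.

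Among the lists for stromal cells, Dcn, a matrix proteoglycan, had 42.0 and 27.3 FPKM, while the fibroblast collagens Col1a1, Col1a2 and Col3a1 were at 0.0518 to 0.144 FPKM. Pdgfra and Dpt had 1.10 and 1.047 FPKM, and 0.421 and 0.344 FPKM. The muscle genes past 1.5-fold were Tnnc2 (2.14 and 5.57 FPKM), Mb (1.82 and 4.28 FPKM), Acta1 (1.98 and 4.15 FPKM), Tnnt3 (1.92 and 4.02 FPKM) and Ckm (1.16 and 2.39 FPKM), and Mylpf had 3.76 and 5.25 FPKM. Among all genes averaging 1 FPKM or more, 1.05% were at least 1.5-fold higher at 6 months. Vwf, Prox1 and Tek led the endothelial list with 3.94 and 3.34, 2.99 and 2.89, and 1.57 and 1.55 FPKM. Mbp and Sox10, genes of Schwann cells, had 16.2 and 16.0, and 1.95 and 1.045 FPKM. Eef1a1, Rplp0 and Ppia, used by all cells, had 5610 and 5376, 2557 and 2534, and 2372 and 2174 FPKM.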
